A study of Mus musculus with 4 samples.

Results

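The GPI transamidase is an enzyme complex of 5 subunits in the membrane of the endoplasmic reticulum, encoded in the mouse by Pigk, Pigt, Pigs, Pigu and Gpaa1. The members were taken by gene symbol after the Ensembl identifiers of the deposited count table were matched to GENCODE M21. All 5 were found among the 51826 identifiers of the table, and all 5 passed the filter on low counts, which left 15467 genes. RNA was sequenced from C2C12 cells, a mouse myoblast line, kept in growth medium for 6 h with recombinant GDF10, a growth factor related to TGF-beta, or with vehicle. There were 2 GDF10 libraries and 2 vehicle libraries, stated to be biological replicates, and the question was which transcripts differ after GDF10. The dose of GDF10 is not given in the labels. The complex was chosen by an earlier result of these libraries, namely that Pigk had passed the test of GDF10 against vehicle. Every value of that contrast for the 5 subunits is therefore a description and supports nothing further.

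Glycosylphosphatidylinositol (GPI) is a glycolipid that holds many proteins at the outer face of the cell membrane. It is built stepwise on the endoplasmic reticulum membrane, and the transamidase then cuts a signal from the C-terminus of a new protein and joins the finished glycolipid in its place. In human cells PIGK is the cysteine protease-like subunit that makes the cut, PIGT is joined to it by a disulfide bond, PIGS and GPAA1 help to hold the complex together and GPAA1 takes part in forming the new bond, and PIGU binds the glycolipid. Myoblasts carry GPI-anchored proteins such as glypicans, Ly6 antigens and the prion protein.

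Total counts were 29944193 and 35057429 in the GDF10 libraries and 35597310 and 29641165 in the vehicle libraries. The myoblast genes Myod1, Myf5, Des, Itga7 and Cdh15 were present at 22.9 to 1036 CPM with GDF10 and 26.0 to 1000.2 CPM with vehicle (group means, CPM being counts scaled to the library total with TMM factors). Pax7, a gene of muscle stem cells, had 0 counts in all 4 libraries, although the labels give the cell type as muscle stem cells. That allows at most 0.0843 to 0.101 CPM, taking 3 counts as the limit and covering counting error only. One extraction protocol in the labels names longissimus dorsi muscle. Of the mature fibre markers, Actn3 stood at 75.3 CPM with GDF10 and 66.7 CPM with vehicle, Mylpf at 58.3 CPM with GDF10 and 49.1 CPM with vehicle, Ckm at 5.06 CPM with GDF10 and 4.70 CPM with vehicle and Myh1 at 1.59 CPM with GDF10 and 1.96 CPM with vehicle, while Myh4, Myh2 and Pvalb had at most 3 counts in a GDF10 library and at most 7 in a vehicle library. Of the blood and immune markers, Cd68 stood at 2.64 CPM with GDF10 and 3.19 CPM with vehicle, Ptprc had 0 and 0 counts with GDF10 and 2 and 0 with vehicle, and Hbb-bs had 0 in all 4 libraries. The part of other cell types in the results was not tested. The p-values of this report measure the spread between these 4 libraries only. Fewer cells of a kind and less RNA per cell cannot be told apart in such bulk samples.

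The 5 genes lie on 4 chromosomes of mm10 by GENCODE M21. Pigk (ENSMUSG00000039047) runs on the plus strand of chromosome 3 from 152714100 to 152980408 and has 9 annotated transcripts, of which 2 are protein-coding. Pigt (ENSMUSG00000017721) lies on chromosome 2 from 164497520 to 164508301, and Pigu (ENSMUSG00000038383) on the minus strand of the same chromosome from 155278243 to 155357430. Pigs (ENSMUSG00000041958) lies on chromosome 11 from 78328415 to 78342782 with 1 transcript, and Gpaa1 (ENSMUSG00000022561) on chromosome 15 from 76331231 to 76334907. No subunit gene shares exon bases with another tested gene. Pigk shares 108 exon bases with St6galnac5 of the opposite strand, which had 0 counts in all 4 libraries.

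RefSeq promoter windows of build GRCm38.p6 were held for 3 of the 5 genes, Pigt, Pigs and Pigu, and are shown for that reason. None was held for Pigk or Gpaa1. For Pigt 2 windows were held, and only the first listed was searched and is shown. The shares over all genes likewise use the first window listed for each gene. The counts of the 3 genes shown differed little between the groups. Each runs from base -250 to base -11 before the RefSeq start, 5′ to 3′ in the direction of the gene, and stands for chr2:164497275-164497514 on the plus strand (Pigt), chr11:78328172-78328411 on the plus strand (Pigs) and chr2:155357435-155357674 on the minus strand (Pigu). The SMAD box CAGAC, the further SMAD motif GGCGCC, the CCAAT box, the Sp1 motif GGGCGG and the ETS core CCGGAAG were searched on both strands, and capitals mark the matches.
Pigt: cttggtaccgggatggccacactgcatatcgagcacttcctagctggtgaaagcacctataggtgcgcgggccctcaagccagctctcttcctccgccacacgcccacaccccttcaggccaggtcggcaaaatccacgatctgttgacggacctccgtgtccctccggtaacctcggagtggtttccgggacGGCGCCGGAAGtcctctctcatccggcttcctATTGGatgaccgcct
Pigs: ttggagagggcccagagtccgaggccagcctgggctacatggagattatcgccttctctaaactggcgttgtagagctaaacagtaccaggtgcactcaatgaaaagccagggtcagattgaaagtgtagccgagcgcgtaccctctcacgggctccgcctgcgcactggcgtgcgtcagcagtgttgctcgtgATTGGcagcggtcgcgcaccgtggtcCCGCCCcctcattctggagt
Pigu: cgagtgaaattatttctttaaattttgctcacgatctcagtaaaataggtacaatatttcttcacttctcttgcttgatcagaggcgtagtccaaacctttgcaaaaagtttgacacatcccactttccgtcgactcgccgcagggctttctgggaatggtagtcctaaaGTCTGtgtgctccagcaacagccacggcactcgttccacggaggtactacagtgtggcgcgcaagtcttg
The Pigt window held GGCGCC, an overlapping CCGGAAG and CCAAT, the Pigs window CCAAT and GGGCGG, and the Pigu window only CAGAC. Of 27025 genes with such a window, 40.8% held CAGAC, 9% GGCGCC, 33.7% CCAAT, 31.5% GGGCGG and 6.28% CCGGAAG. The windows of Pigt and Pigs had a GC content of 61.2% and 59.6% with 18 and 17 CpG, and that of Pigu 46.7% with 12 CpG, beside medians of 52.1% and 5 over all windows. A match is only a run of letters and was not linked to binding.

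Pigk, the gene of the cutting subunit, was the one subunit gene with a wide difference between the groups. It had 92.5 and 90.8 CPM with GDF10 (2775 and 3168 counts), against 49.5 and 45.6 CPM with vehicle (1768 and 1351 counts). Both GDF10 libraries stood above both vehicle libraries, and the gap between the groups was much wider than that between replicates. The means were 91.7 ± 1.21 CPM with GDF10 and 47.5 ± 2.72 CPM with vehicle (SD, n = 2 each), which is 1.93-fold or 0.95 on the log2 scale (SE 0.09, 95% interval 0.75 to 1.15). The complex was selected on the adjusted p of Pigk, 0.0140 by the quasi-likelihood test of edgeR with Benjamini-Hochberg adjustment over all genes. By that rule 1 of the 5 subunits was called higher, and of all genes tested 0.162%, or 25, were called in either direction and 0.0840% as higher. The adjusted p of Pigk was 0.0587 without robust dispersion estimates, 0.0589 without vehicle replicate 1 and 0.0683 without vehicle replicate 2, all by edgeR, while its log2 fold change stayed between 0.89 and 1.04 over 16 alternatives.

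**Figure D1:**
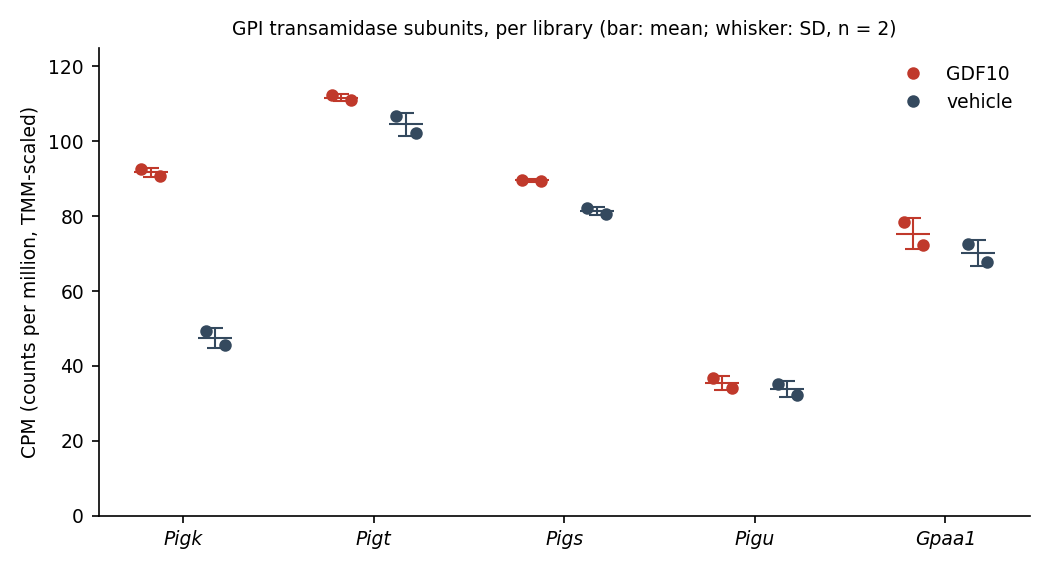
CPM of the 5 subunit genes in each library, GDF10 in red and vehicle in dark blue. Points are libraries, the bar is the group mean and the whisker its SD (n = 2); Pigk stands at 91.7 CPM with GDF10 against 47.5 CPM with vehicle, while GDF10 over vehicle is 1.05 to 1.10 for the other genes.

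The genes of the other 4 subunits differed far less between the groups. Pigt, whose product is joined to PIGK, had 112 and 111 CPM with GDF10, against 107 and 102 CPM with vehicle. Its log2 fold change was 0.10, with a 95% interval of -0.08 to 0.27. Pigs, of a scaffold subunit, had 89.8 and 89.3 CPM with GDF10, against 82.2 and 80.6 CPM with vehicle, a log2 fold change of 0.14 (-0.04 to 0.31). In both genes the groups did not overlap, and the difference was small. Both GDF10 libraries lay above both vehicle libraries in 3 of the 5 subunits, Pigk among them, beside 18.8% of all genes tested. Since Pigk was the reason for choosing the complex, that count is a description. Gpaa1, of the subunit that takes part in forming the new bond, had 78.3 and 72.4 CPM with GDF10, against 72.7 and 67.7 CPM with vehicle, a log2 fold change of 0.10 (-0.10 to 0.31). Pigu, of the glycolipid-binding subunit, had 36.6 and 34.1 CPM with GDF10, against 35.2 and 32.3 CPM with vehicle, a log2 fold change of 0.07 (-0.17 to 0.30). In these 2 genes the groups overlapped. The upper ends of the 4 intervals, at 0.27 to 0.31, lie below the lower end of that of Pigk, at 0.75. The median log2 fold change was 0.10 over the 5 subunits and 0.0029 over all genes tested, where the median size of a difference was 0.12.

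The gaps between replicates of the subunit genes were near or below the median over all genes tested, which include genes of far lower counts. The gap between the 2 GDF10 libraries was 0.03 on the log2 CPM scale for Pigk, 0.02 for Pigt, 0.01 for Pigs, 0.11 for Pigu and 0.11 for Gpaa1, beside a median of 0.16 over all genes tested. The gap between the vehicle libraries was 0.12 for Pigk, 0.06 for Pigt, 0.03 for Pigs, 0.13 for Pigu and 0.10 for Gpaa1, beside a median of 0.13. Among all genes tested Pigk ranked 162nd from the top by log2 fold change and 10th by p.

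**Figure D2:**
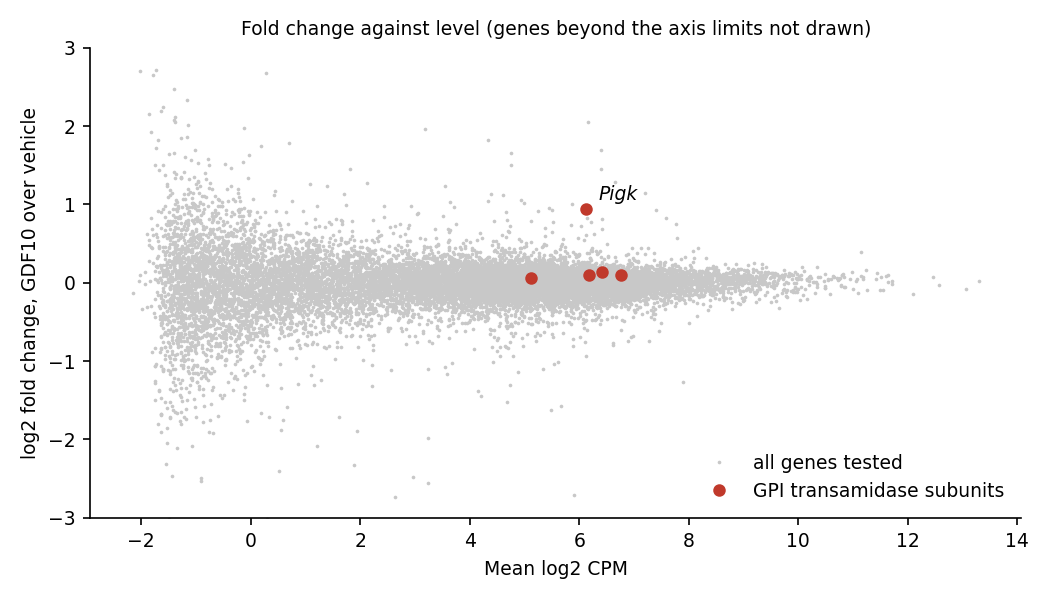
Log2 fold change of GDF10 over vehicle against mean log2 CPM, with the 5 subunit genes in red and all 15467 genes tested in grey; 24 genes beyond a log2 fold change of 3 in either direction are not drawn. Pigk lies at 0.95 and the other subunits between 0.07 and 0.14.

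The ratio of Pigk to its partners can be read within each library, where scaling between libraries has no part. Pigk had 0.824 and 0.818 counts per count of Pigt with GDF10, against 0.463 and 0.446 with vehicle. Against Pigs the ratio was 1.03 and 1.02 with GDF10 and 0.602 and 0.566 with vehicle. Against Gpaa1 it was 1.18 and 1.26 with GDF10 and 0.681 and 0.674 with vehicle, and against Pigu it was 2.53 and 2.67 with GDF10 and 1.40 and 1.41 with vehicle. All 4 ratios thus separated the groups by a wide margin. Pairs without Pigk kept much nearer ratios: Pigt over Pigs was 1.25 and 1.24 with GDF10 and 1.299 and 1.27 with vehicle, and Gpaa1 over Pigu was 2.14 and 2.12 with GDF10 and 2.06 and 2.10 with vehicle. In the other 4 pairs without Pigk the groups overlapped. The 4 genes without Pigk summed to 317 and 307 CPM with GDF10, against 297 and 283 CPM with vehicle.

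**Figure D3:**
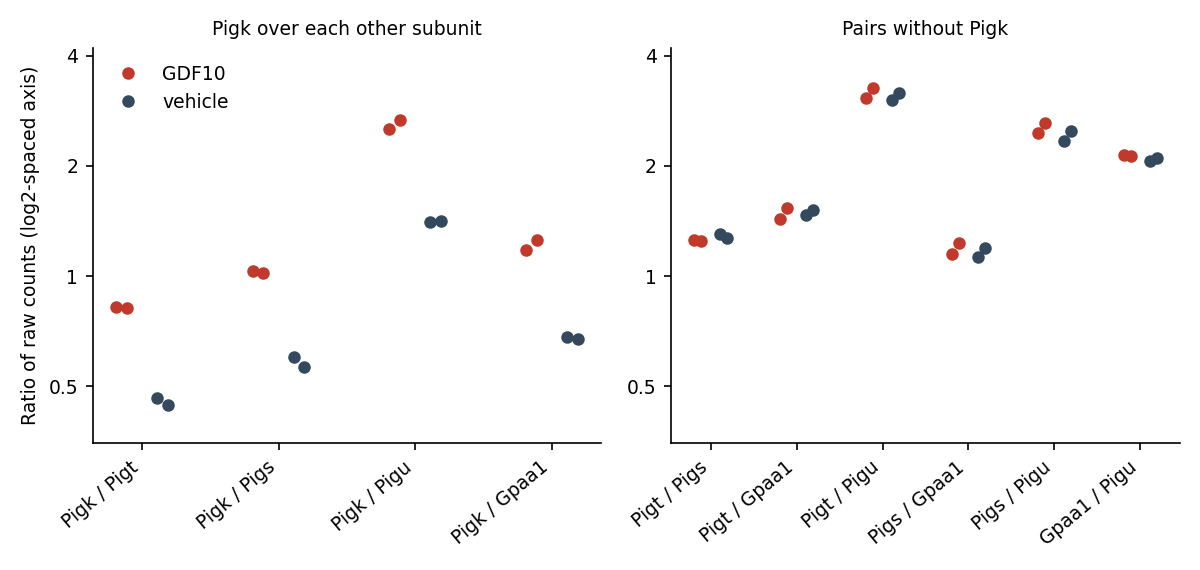
Ratios of raw counts between subunit genes in each library, on a log2-spaced axis, GDF10 in red and vehicle in dark blue. The 4 ratios with Pigk on top (left) are higher in both GDF10 libraries, as with Pigk over Pigt at 0.824 and 0.818 with GDF10 against 0.463 and 0.446 with vehicle, while the 6 pairs without Pigk (right) lie close together.

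Levels of different genes compare only per length, and for these genes the order depends on the length used. With all annotated exons merged, the order of CPM per kilobase was Pigs, Pigt, Gpaa1, Pigk and Pigu in every library. Pigs stood at 35.8 ± 0.140 with GDF10 and 32.5 ± 0.442 with vehicle, and Pigk at 9.66 ± 0.127 with GDF10 and 5.01 ± 0.286 with vehicle (CPM per kilobase, SD, n = 2 each). Neighbours in that order did not overlap within either group. Merged exons are long for Pigk (9495 bases) and Pigu (9326 bases), whose longest protein-coding transcripts have 4737 and 1636 bases. With that transcript as the length, Pigt was highest, at 43.6 ± 0.359 with GDF10 and 40.8 ± 1.24 with vehicle, and Pigs and Gpaa1 followed, overlapping in the GDF10 group and, as 32.9 and 32.2 against 34.5 and 32.1, also in the vehicle group. Pigk was then lowest in all 4 libraries, at 19.4 ± 0.255 with GDF10 and 10.0 ± 0.574 with vehicle, below Pigu at 21.6 ± 1.118 with GDF10 and 20.6 ± 1.27 with vehicle. As a share of the 5 genes per kilobase Pigk made up 9.26% and 9.35% with GDF10 and 5.53% and 5.34% with vehicle by merged exons, and 12.3% and 12.5% with GDF10 and 7.40% and 7.20% with vehicle by the longest coding transcript. Gene counts do not tell which of the 9 Pigk transcripts gave the reads. Those annotated include 4 that are targets of nonsense-mediated decay.

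**Figure D4:**
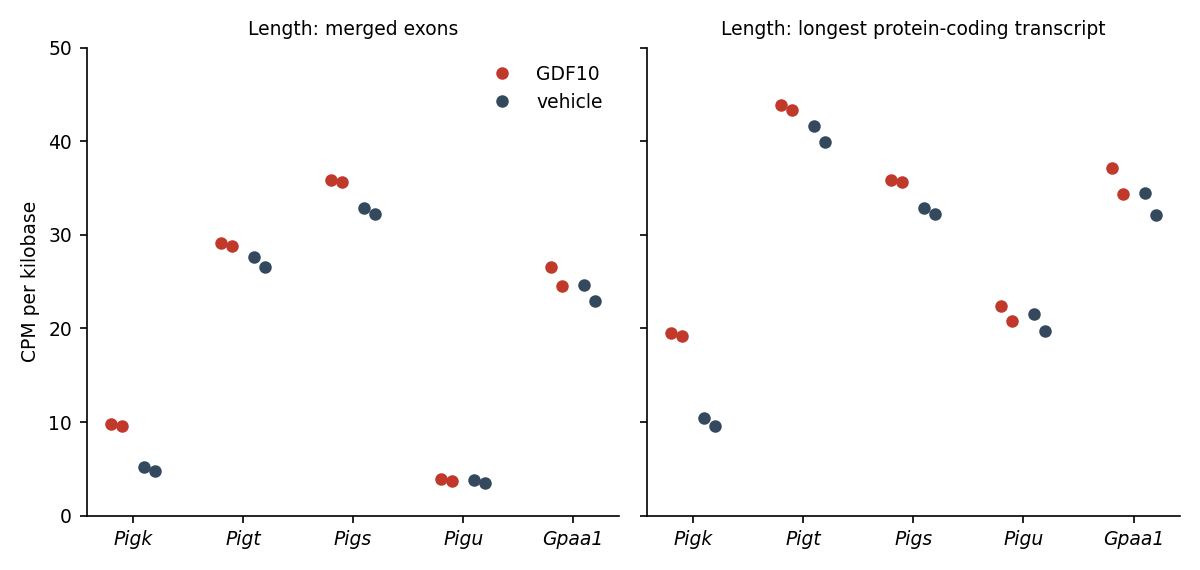
CPM per kilobase of the 5 subunit genes in each library, GDF10 in red and vehicle in dark blue, with merged exons (left) or the longest protein-coding transcript (right) as the length. Pigk is above Pigu on the left, at 9.66 with GDF10 and 5.01 with vehicle, where Pigu has 3.79 with GDF10 and 3.62 with vehicle, and below it on the right.

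The 2 nearest tested genes on each side of the 5 subunit genes, 20 in all, gave 0 calls, beside 0.162% of all genes tested. Some of them lie far from the subunit gene. At an unadjusted p under 0.05 by edgeR, 3 were higher and 1 was lower, beside 2.44% and 3.49% of all genes tested. These genes were added after their values were seen, so the counts are a description and support nothing further. Beside Pigk on chromosome 3, Ak5, an adenylate kinase gene 45.7 kb away, had 126 and 153 counts with GDF10 and 115 and 79 with vehicle, or 0.54 on the log2 scale (unadjusted p = 0.0310, adjusted p = 0.825, edgeR). Zzz3, 251 kb away on the same side, had a log2 fold change of -0.15. St6galnac3 and Rabggtb, 218 kb and 927 kb away on the other side, had -0.20 and -0.12. Map1lc3a, which lies 0.170 kb from the end of Pigu, had 54.4 ± 3.44 CPM with GDF10 and 44.0 ± 1.43 CPM with vehicle (SD, n = 2 each; log2 fold change 0.30, adjusted p = 0.801 by edgeR). Gm20458, 6.76 kb from Pigt, had 10 and 27 counts with GDF10 and 1 and 0 with vehicle (adjusted p = 0.446, edgeR). Foxn1, of a transcription factor, lies 14.8 kb from Pigs and had 94 and 131 counts with GDF10 and 174 and 139 with vehicle (log2 fold change -0.47, adjusted p = 0.825, edgeR).

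The centred log2 CPM of Pigk over the 4 libraries was compared with that of 10952 other genes of mean log2 CPM 1 or more, leaving out predicted and clone names. The 5 nearest by Euclidean distance were Pfkfb4, a phosphofructokinase regulator gene, at 0.03, Tmem189 at 0.09, Trim39 at 0.09, Aamdc at 0.12 and Krr1, of ribosome biogenesis, at 0.14 log2 units. Pfkfb4 had 521 and 592 counts with GDF10 and 323 and 252 with vehicle. These genes were chosen for their likeness, so their differences carry no test. Tmem189 and Krr1 share exon bases with other genes, Gm20431 and Cebpb in the first case and Glipr1 in the second, and their counts are uncertain, since the counting rule is not given in the sources used here. None of the 5 is a gene of the GPI pathway lists.

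The genes that build the GPI glycolipid before the transamidase acts were taken as textbook lists. With DESeq2 0 genes of these lists or of the other lists below were called, except for Efna1. Of 7 tested genes of the first step, the transfer of N-acetylglucosamine to phosphatidylinositol, 0 passed the test over all genes, beside 0.162% of all genes tested. Of these, 4 had positive and 3 negative fold changes, beside 50.8% positive over all genes tested, and the median log2 fold change was 0.10. Piga, which encodes the catalytic subunit of that transferase, had 9.04 and 14.5 CPM with GDF10, against 18.4 and 17.7 CPM with vehicle. Both GDF10 libraries were lower but lay far apart, and the log2 fold change was -0.61 (95% interval -1.18 to -0.04, unadjusted p = 0.0395, adjusted p = 0.825, edgeR). Without GDF10 replicate 2 the log2 fold change of Piga was -0.996. That fit rests on 1 GDF10 library, the lower one, at 9.04 CPM. Pigh, another subunit of the transferase, had 14.5 and 14.6 CPM with GDF10, against 18.1 and 16.7 CPM with vehicle (log2 fold change -0.26). Its counts are uncertain, since it shares 992 exon bases with Plekhh1, which had counts in every library. Pigq, the gene of the list with the highest CPM, had 45.5 ± 5.81 CPM with GDF10 and 39.8 ± 0.909 CPM with vehicle, and Dpm2, a regulatory subunit, 27.5 ± 2.10 CPM with GDF10 and 25.7 ± 2.80 CPM with vehicle (SD, n = 2 each). Pyurf, whose transcript also encodes PIGY in human, had 490 and 526 counts with GDF10 and 426 and 391 with vehicle (log2 fold change 0.32), while summed with the overlapping Gm26712 and Gm37397 it had 495 and 558 with GDF10 and 547 and 531 with vehicle. At an unadjusted p under 0.05, 1 gene of this list was higher (Pyurf) and 1 lower (Piga), beside 2.44% and 3.49% of all genes tested, or 5.94% in either direction.

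Of 15 tested genes of the later steps of assembly, 0 passed, beside 0.162% of all genes tested. Of these, 8 had positive and 7 negative fold changes, beside 50.8% positive over all genes tested, and the median was 0.02. At an unadjusted p under 0.05 by edgeR, 0 were higher and 1 was lower, beside 2.44% and 3.49% of all genes tested. Dpm1, the catalytic subunit of dolichol-phosphate mannose synthase, which supplies mannose to the glycolipid, had 349 and 355 counts with GDF10 and 578 and 386 with vehicle, or -0.42 on the log2 scale (unadjusted p = 0.0317, adjusted p = 0.825, edgeR). The gene model Gm20716 overlaps 895 of its exon bases and had 310 and 340 counts with GDF10 and 0 and 306 with vehicle. Their sum was 659 and 695 with GDF10 and 578 and 692 with vehicle, so that the lower counts of Dpm1 with GDF10 were not seen in the sum. Pigg, which adds a side chain of ethanolamine phosphate, had 15.2 ± 2.41 CPM with GDF10 and 18.8 ± 0.831 CPM with vehicle (log2 fold change -0.31). Mpdu1, needed for the use of dolichol-linked mannose, had 34.4 ± 1.84 CPM with GDF10 and 30.1 ± 1.89 CPM with vehicle (log2 fold change 0.19). The highest CPM belonged to Clptm1l, a scramblase of the pathway in human, at 184 ± 2.88 CPM with GDF10 and 171 ± 6.16 CPM with vehicle (log2 fold change 0.11), and to Pign, another ethanolamine phosphate transferase gene, at 70.7 ± 15.9 CPM with GDF10 and 66.3 ± 0.269 CPM with vehicle (SD, n = 2 each).

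After transfer, the anchor is trimmed and the protein leaves the endoplasmic reticulum with p24 cargo receptors. Of 11 tested genes of this step 0 passed, beside 0.162% of all genes tested. Of these, 8 had positive and 3 negative fold changes, beside 50.8% positive over all genes tested, and the median was 0.04. An unadjusted p under 0.05 by edgeR was reached by 0, beside 5.94% of all genes tested. Mppe1, the phosphodiesterase PGAP5 that trims the side chain, had 14.2 ± 0.661 CPM with GDF10 and 11.5 ± 0.749 CPM with vehicle (log2 fold change 0.30). The p24 receptor gene Tmed5 had 40.5 ± 0.108 CPM with GDF10 and 46.7 ± 4.45 CPM with vehicle (log2 fold change -0.21), and Tmed9 had 228 ± 12.3 CPM with GDF10 and 209.7 ± 3.35 CPM with vehicle (log2 fold change 0.12). Tmed10 had the highest CPM, at 307 ± 0.223 CPM with GDF10 and 296 ± 2.11 CPM with vehicle, followed by Tmed2 at 251 ± 1.87 CPM with GDF10 and 249.9 ± 9.85 CPM with vehicle (SD, n = 2 each). Of 3 tested genes of enzymes that release anchored proteins 0 passed and 0 reached an unadjusted p under 0.05, beside the same shares over all genes. Gdpd5 had a log2 fold change of 0.18, Gpld1 of -0.25 and Gdpd2 of 0.22. Gpld1 shares 2466 of its 5415 exon bases with Mrs2, and Mppe1 shares 852 with Gnal. Tmed5 shares 395 with Mtf2, and Gdpd2 shares 799 with Gm14866. These partner genes had counts in every library, so the counts of Gpld1, Mppe1, Tmed5 and Gdpd2 are uncertain.

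The substrates of the complex were represented by 102 genes of GPI-anchored proteins, of which 49 were tested and 53 were too low to test, 29 of them with 0 counts in all libraries. Of the 49, 0 passed over all genes, beside 0.162% of all genes tested. Positive fold changes numbered 33 and negative ones 16, beside 50.8% positive over all genes tested, and the median was 0.07. At an unadjusted p under 0.05, 4 of the 49 were higher and 1 was lower, beside 2.44% and 3.49% of all genes tested. Efna1, of an ephrin ligand, was nearest to the threshold, with 17.6 and 18.9 CPM with GDF10, against 33.8 and 30.7 CPM with vehicle, or -0.82 on the log2 scale (SE 0.11, adjusted p = 0.0640, edgeR). It passed in 4 of the 13 alternatives in which the genes of this list were counted: with upper quartile scaling at 0.0492, with DESeq2 at 9.16e-06, without GDF10 replicate 1 at 0.0479 and without GDF10 replicate 2 at 0.0185. The Ly6 antigen gene Ly6a had 103 ± 0.0473 CPM with GDF10 and 81.5 ± 1.47 CPM with vehicle (log2 fold change 0.34, adjusted p = 0.467, edgeR), and Hyal2, of a hyaluronidase, 27.6 ± 1.70 CPM with GDF10 and 20.4 ± 2.03 CPM with vehicle (log2 fold change 0.44, adjusted p = 0.700, edgeR). The highest CPM belonged to Gpc1, a glypican gene, at 1586 ± 114.6 CPM with GDF10 and 1531 ± 27.5 CPM with vehicle (log2 fold change 0.05), and to Ly6e, at 697 ± 40.2 CPM with GDF10 and 592 ± 38.5 CPM with vehicle (log2 fold change 0.24, unadjusted p = 0.0208). Larger fold changes belonged to genes with few counts, such as Dpep2, with 24 and 40 counts with GDF10 and 21 and 2 with vehicle.

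**Figure D5:**
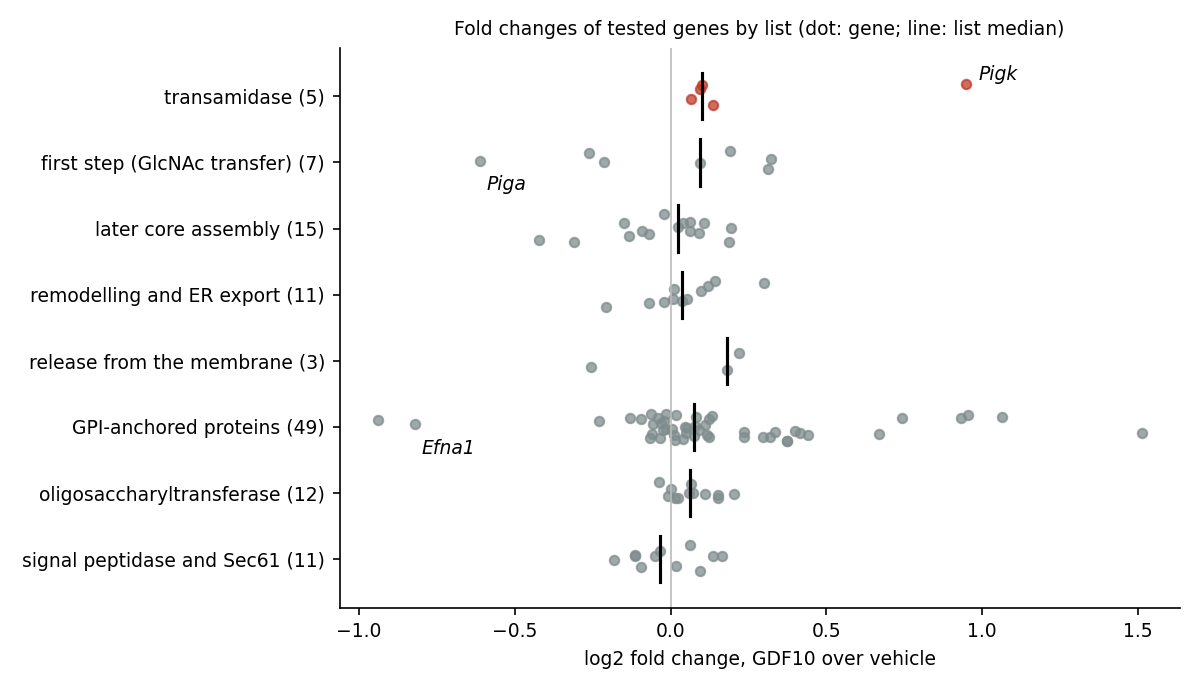
Log2 fold change of GDF10 over vehicle for each tested gene of the lists, with the number tested in brackets; points are genes and black lines list medians, and the vertical spread within a list has no meaning. Pigk lies at 0.95, apart from the other subunits at 0.07 to 0.14, and the list medians lie between -0.03 and 0.18.

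Other multi-subunit complexes of the same membrane gave a range for such genes. Oligosaccharyltransferase joins N-glycans to new proteins, and its 12 tested genes had log2 fold changes of -0.04 to 0.20 with a median of 0.06 and 0 calls. Tmem258, Dad1 and Ost4, of small subunits, had the lowest p, with log2 fold changes of 0.20, 0.15 and 0.15. Ost4 shares 677 of its 1272 exon bases with Agbl5, and Tmem258 shares 130 with Fen1. Both partner genes had counts in every library, so the counts of Ost4 and Tmem258 are uncertain. Rpn2, of a structural subunit, had 307 ± 5.12 CPM with GDF10 and 304 ± 8.71 CPM with vehicle, and Stt3a, of a catalytic subunit, 305 ± 3.12 CPM with GDF10 and 299.8 ± 5.11 CPM with vehicle. The 11 tested genes of signal peptidase and the Sec61 channel, which admit and cut new secretory proteins, had log2 fold changes of -0.18 to 0.16 with a median of -0.03 and 0 calls. Sec61b, of the channel, had a log2 fold change of 0.16, Sec63, which works with the channel, of -0.12, and Spcs2, of signal peptidase, of -0.18. Sec61a1, the pore subunit gene, had the highest CPM, 476 ± 7.60 with GDF10 and 469.8 ± 11.0 with vehicle (SD, n = 2 each). In both lists 0 genes reached an unadjusted p under 0.05 by edgeR, beside 5.94% of all genes tested. The 0 calls of each list stand beside 0.162% called of all genes tested. The log2 fold change of Pigk lay outside both ranges, and those of Pigt, Pigs, Pigu and Gpaa1 lay within both. Since the complex was chosen by the result of Pigk, its place outside the ranges is a description and supports nothing further.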

How the data were processed

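RNA of 2 GDF10 and 2 vehicle libraries was sequenced by the submitters. The authors deposited raw counts for each gene with no scaling. The submitters' processing notes name DESeq2 1.12.4, StringTie 1.3.3b, bedtools 2.26.0, HISAT2 2.0, Trimmomatic 0.36 and FastQC 0.11.2 with build mm10, without their roles. How reads were assigned to genes, with which annotation and strand setting, is not given in the sources used here, so genes that overlap may have shared reads. Of 51826 identifiers, 51633 matched GENCODE M21. In R 4.3.3, edgeR 4.0.16 was used: filterByExpr, TMM scaling, robust dispersions, glmQLFit and glmQLFTest of GDF10 against vehicle, with Benjamini-Hochberg adjustment over 15467 genes and a threshold of 0.05. CPM divide a count by the library total and its TMM factor. Standard errors come from the fold change and F statistic. Alternatives used other scalings, filters, dispersions, DESeq2 1.42.0, limma 3.58.1 (voom), a replicate block, left-out libraries, sums over overlapping genes, and log2 CPM with length or GC trends removed (loess, span 0.3). The members, lists and tests were chosen with earlier results of these data known. Named in each list are the genes that passed, otherwise the 3 of lowest p and the 2 most abundant. Flanking genes, sums of overlapping pathway genes, Dpep2, Pigc, Pigb and Spcs1 were added after their values were seen. Total counts of 29641165 to 35597310 a library set the precision.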

Additional observations from a re-analysis of the deposited data

How the results depend on the processing

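The log2 fold change of each of the 5 subunit genes kept its sign over 16 alternatives, and Pigt, Pigs, Pigu and Gpaa1 passed in 0 of them. That of Pigk passed in 13; it was 0.95 without robust dispersion estimates, with an adjusted p of 0.0587 by edgeR, and 0.89 to 1.01 when each library was left out in turn, passing without either GDF10 library and not without either vehicle library. It was 1.04 with the exon length trend and 0.98 with the GC content trend removed. Summing with St6galnac5 left it the same, since that gene had 0 counts. That sum is counted among the 16 alternatives, although it could not change any of the 5 subunit genes. The number of genes called was 25, against 65 with DESeq2, 11 with limma-voom, 9 without robust dispersion estimates and 27 to 224 with a library left out. Genes called among the GPI-anchored proteins numbered 1 with upper quartile scaling, 1 with DESeq2 and 0 to 1 with a library left out, and those of the first step 0 to 1 with a library left out. The cause of these shifts was not tested. The other lists gave 0 in the 13 alternatives in which lists were counted; sums over overlapping genes and removed trends were read for the subunits alone. The mean share of Pigk among the subunits per kilobase in the vehicle libraries was 5.43%, and 7.30% with the longest coding transcript, an alternative chosen after seeing the data, because the lengths differ. The labels do not say that equal replicate numbers mark a pair. With the replicate number as a block, 23 genes were called and Pigk stood at 0.95 on the log2 scale (adjusted p = 0.0101, edgeR); deviations of same-numbered libraries correlated at 0.07 over genes.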

Other observations

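Pigc, a subunit gene of the first step, differed more within the vehicle group than between the groups, with 452 and 427 counts with GDF10 and 849 and 231 with vehicle. Pigb, a mannosyltransferase gene, had 396 and 735 counts with GDF10 and 502 and 653 with vehicle. Spcs1, of signal peptidase, had 2614 and 4575 counts with GDF10 and 2892 and 3807 with vehicle. Pigb and Spcs1 share exon bases with other annotated genes. Over all genes tested, which are no independent replicates, Spearman's rho of the log2 fold change was -0.26 against exon length and 0.26 against GC content. Pigk has 9495 exon bases and a GC content of 47.3%, and Pigu has 9326 bases and 47.2%. Their log2 fold changes were 0.95 and 0.07. With the exon length trend removed they were 1.04 and 0.16, and with the GC content trend removed 0.98 and 0.10. Beyond that, the part of exon length and GC content in these differences was not tested.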
